A study of Mus musculus with 8 samples.

Results

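Expression of the Hox and Cdx genes was examined in the pharyngeal mesoderm and hearts of mouse embryos with and without Isl1. Members were the 39 Hox genes (Hoxa 11, Hoxb 10, Hoxc 9 and Hoxd 9) together with Cdx1, Cdx2 and Cdx4, 42 of the 20701 gene symbols in the table, all taken by name with no filter on level. RNA came from 4 Isl1-/- and 4 wild-type C57BL/6 embryos at E8.75, the stage with 6 somites, with 1 embryo in each library. Both genotypes went through the same dissection, the labels name no treatment, and they describe the mutant allele no further than Isl1-/-. The samples were pieces of whole tissue, so fewer cells of a type and less RNA per cell cannot be told apart.

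Hox genes encode homeodomain transcription factors that set position along the head-to-tail axis. In each cluster the genes at the 3′ end, with low paralogue numbers, are switched on early and reach far forward into the hindbrain and pharyngeal region, whereas genes towards the 5′ end are switched on later and stay behind, in trunk and tail. Cdx genes encode caudal-type homeodomain factors of the posterior embryo that act upstream of the central Hox genes, and retinoic acid activates the 3′ genes. In the heart, anterior Hox genes such as Hoxb1 and Hoxa3 are known from the second heart field, the progenitor population that also expresses Isl1.

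On the mm9 assembly the Hoxa cluster lay on chromosome 6 (52105366 to 52210874, minus strand), Hoxb on chromosome 11 (96055630 to 96229570, plus strand), Hoxc on chromosome 15 (102751534 to 102867274, plus strand) and Hoxd on chromosome 2 (74506367 to 74603200, plus strand). Cdx2 lay on chromosome 5 (148112381 to 148118846) and Cdx4 on chromosome X (100516737 to 100525931). Start-site sequence from RefSeq (GRCm38.p6, 250 bases before to 50 after the annotated start) was held for 24 of the 42 members, in 26 entries. The Hoxb1 window is shown because Hoxb1 was among the most abundant members, that of Hoxa9 because its reads came mainly from 1 embryo, and those of Hoxa7 and Hoxb8 because their reads differed widely between embryos of 1 genotype and each held more than 1 CDX-type word. Capitals mark matches on either strand to TTTATG, a CDX-type word, or TGATNNAT, a word bound by HOX with PBX. The windows are Hoxb1 (chr11:96365508-96365807, plus strand), Hoxb8 (chr11:96281655-96281954, plus strand), Hoxa7 (chr6:52218524-52218823, minus strand) and Hoxa9 (chr6:52227321-52227620, minus strand), each printed 5′ to 3′ along its own gene.
Hoxb1: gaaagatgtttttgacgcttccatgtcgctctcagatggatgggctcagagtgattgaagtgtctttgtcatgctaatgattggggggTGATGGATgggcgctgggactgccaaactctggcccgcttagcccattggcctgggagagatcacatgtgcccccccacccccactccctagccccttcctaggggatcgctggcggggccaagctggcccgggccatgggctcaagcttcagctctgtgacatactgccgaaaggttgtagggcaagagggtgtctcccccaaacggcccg
Hoxb8: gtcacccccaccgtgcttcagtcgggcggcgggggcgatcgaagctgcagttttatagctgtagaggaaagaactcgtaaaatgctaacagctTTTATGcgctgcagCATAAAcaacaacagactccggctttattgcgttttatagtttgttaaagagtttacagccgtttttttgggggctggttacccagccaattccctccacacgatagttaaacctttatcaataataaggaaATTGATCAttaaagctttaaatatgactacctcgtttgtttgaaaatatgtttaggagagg
Hoxa7: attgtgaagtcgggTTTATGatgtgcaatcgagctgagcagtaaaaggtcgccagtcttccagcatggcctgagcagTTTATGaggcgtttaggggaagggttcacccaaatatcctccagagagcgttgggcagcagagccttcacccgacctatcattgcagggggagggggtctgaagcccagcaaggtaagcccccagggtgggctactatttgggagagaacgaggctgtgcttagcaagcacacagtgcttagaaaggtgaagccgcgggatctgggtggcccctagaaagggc
Hoxa9: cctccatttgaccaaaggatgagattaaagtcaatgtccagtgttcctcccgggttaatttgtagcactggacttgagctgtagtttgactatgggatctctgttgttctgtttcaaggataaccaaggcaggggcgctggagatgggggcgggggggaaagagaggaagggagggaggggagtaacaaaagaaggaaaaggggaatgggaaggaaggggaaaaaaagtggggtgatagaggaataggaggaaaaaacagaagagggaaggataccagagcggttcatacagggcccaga
The CDX-type word was found in 5 of the 26 member windows (19.2%) and in 11.9% of all 32851 windows of this length, and the HOX with PBX word in 4 (15.4%) and in 8.85%. Hoxb8 held 2 of the first and 1 of the second, which did not overlap, Hoxa7 held 2 of the first, Hoxb1 held 1 of the second, and Hoxa9 held neither.

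Libraries held 18916449 to 26153048 reads, with Isl1-/- embryos 3 and 4 the shallowest. Hox and Cdx genes took 0.0130% of the reads in wild-type embryo 1 and 0.0304% in Isl1-/- embryo 4, the lowest and highest shares. Isl1 itself, the gene knocked out, had a level in CPM (reads per 1000000 reads) of 9.72, 9.76, 26.9 and 23.3 in the 4 wild-type libraries, in the order of embryos 1 to 4. In the 4 Isl1-/- libraries its level was 2.32, 2.16, 1.78 and 2.40 CPM (log2 fold change -3.0, edgeR FDR 0.00410). All 15 listed heart and pharyngeal markers had reads, and their summed level was 2894 to 4006 CPM in the wild-type and 1553 to 2182 CPM in the Isl1-/- embryos.

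Levels followed the order of the genes along the clusters. On the RPKM scale, which is CPM divided by transcript length in kb and allows genes to be compared, the summed mean over the 8 embryos was 25.2 for group 2 and 20.6 for group 3, then 10.1 for group 4, 4.73 for group 5, 2.10 for group 6, 0.720 for group 7, 1.62 for group 8 and 0.798 for group 9. Group 12 had no read in any embryo, and the 4 genes of group 13 had at most 4 reads together in an embryo. Each group holds 2 to 4 genes, which also bears on these sums. The order was not strict within a cluster, since among others Hoxb2 lay above Hoxb1, Hoxd3 above Hoxd1 and Hoxc8 above Hoxc6.

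**Figure D1:**
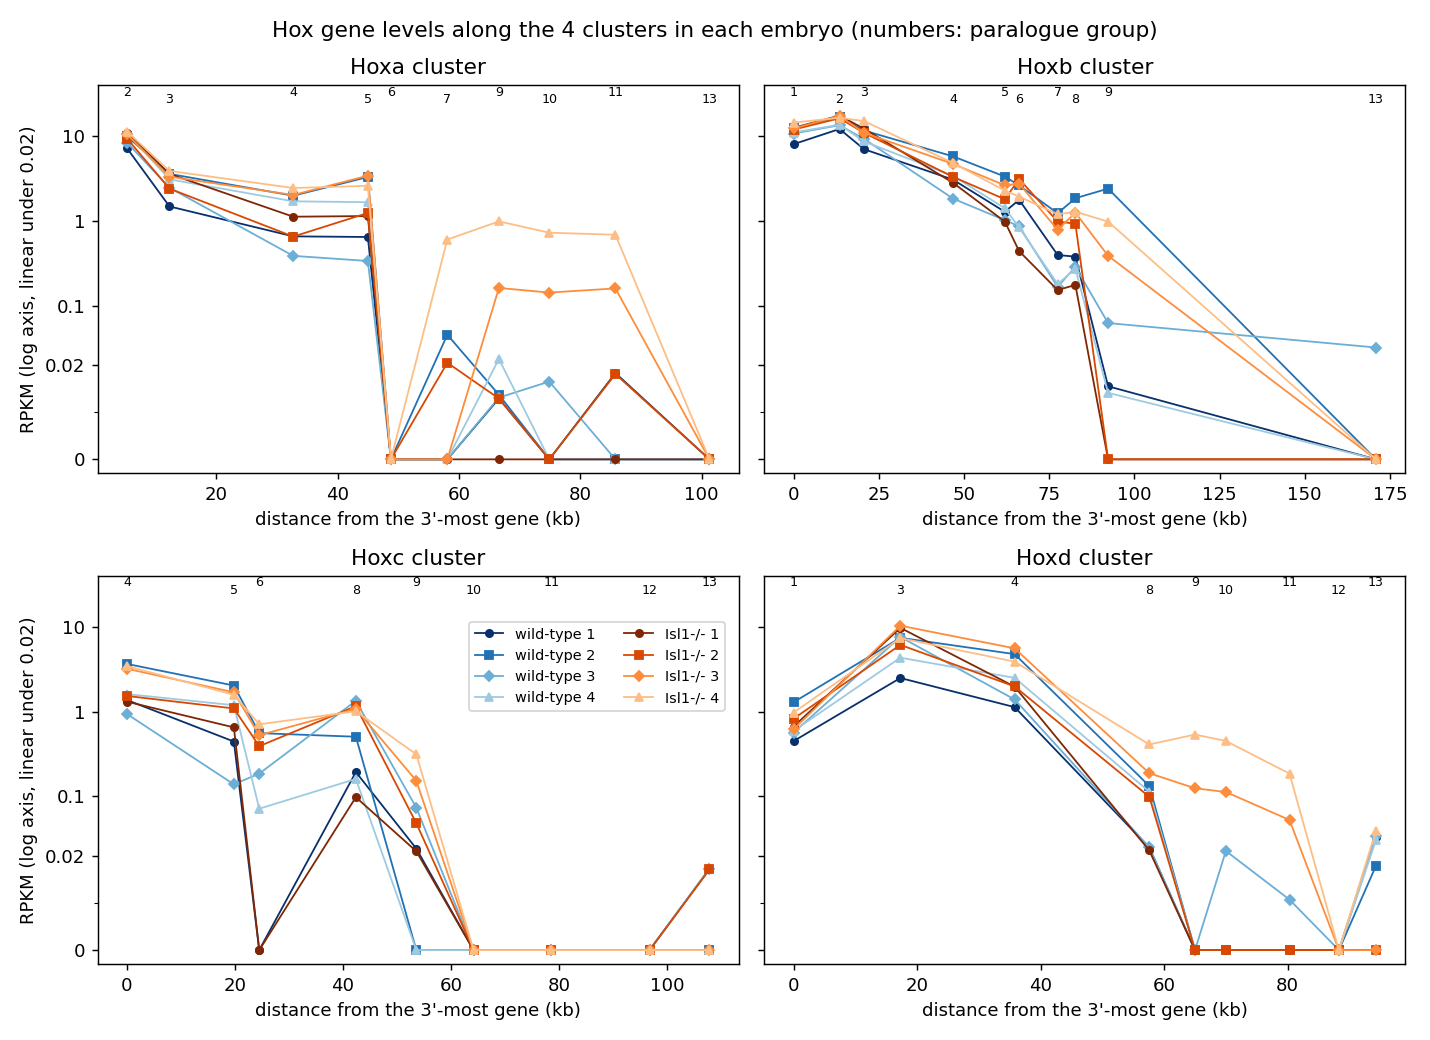
RPKM (vertical axis, logarithmic above 0.02 and linear below) of 38 Hox genes against its distance in kb from the 3′-most gene of its cluster, with a line per embryo, blue for the 4 wild-type and orange to brown for the 4 Isl1-/- embryos, and paralogue numbers along the top. Lines run close together over groups 1 to 3, spread over groups 4 to 8, and beyond group 8 rise above 0.1 RPKM only in wild-type embryo 2 (Hoxb9), Isl1-/- embryo 3 and Isl1-/- embryo 4.

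The most abundant genes of the Hoxb, Hoxc and Hoxd clusters were anterior ones. In Hoxb it was Hoxb2, a group 2 gene of the hindbrain and its neural crest, at 12.1, 16.6, 13.4 and 13.6 RPKM in the wild-type and at 17.4, 16.2, 17.2 and 16.4 RPKM in the Isl1-/- embryos. Wild-type embryo 1 was the lowest of the 8 and wild-type embryo 2 lay within the Isl1-/- range, so the genotypes overlapped.

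Hoxd3 led the Hoxd cluster at 2.49, 7.41, 7.58 and 4.32 RPKM in the wild-type and 9.71, 6.12, 10.3 and 7.35 RPKM in the Isl1-/- embryos. Hoxc4, the 3′-most gene of its cluster, led Hoxc at 1.37, 3.65, 0.937 and 1.61 RPKM in the wild-type and 1.31, 1.53, 3.20 and 3.44 RPKM in the Isl1-/- embryos. Wild-type embryo 2 and Isl1-/- embryos 3 and 4 were at 3.20 RPKM or above, and the other 5, from both genotypes, at 1.61 RPKM or below.

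Of the genes named here, mean levels over all 8 embryos ran from Hoxb2 (15.4 RPKM) through Hoxb1 (11.6), Hoxb3 (10.7), Hoxa2 (9.81) and Hoxd3 (6.91) to Hoxb4 (3.71), Hoxa3 (2.97), Hoxd4 (2.90) and Hoxc4 (2.13), with Hoxd1 far down at 0.748 RPKM. Hoxb1 and Hoxb3 were at 10.5 ± 1.79 and 9.11 ± 1.91 RPKM in the wild-type (SD, n = 4), ranges that overlapped between embryos, while within a library Hoxb1 was the higher of the pair in 7 of 8. Hoxb1 stood above its paralogue Hoxd1 in every library, with Hoxd1 between 0.449 and 1.29 RPKM.

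Anterior and central genes differed in how far embryos of 1 genotype lay apart. For the 8 genes of groups 1 to 3, the highest wild-type embryo was 1.37 (Hoxb2) to 3.04 times (Hoxd3) the lowest, with a median of 1.82, and the corresponding range in the Isl1-/- embryos was 1.07 to 1.68 with a median of 1.39. Over groups 4 to 8, in the 11 of 15 genes with more than 3 reads in every embryo, it was 3.14 (Hoxb6) to 14.6 times (Hoxc5) in the wild-type with a median of 5.11, and 1.72 (Hoxb4) to 11.8 times (Hoxc8) in the Isl1-/- embryos with a median of 3.0. Over all genes tested with as many reads, the medians of this ratio were 1.29 and 1.25. Central genes had fewer reads than anterior ones, which widens such a ratio through counting error, and the size of that part was not tested.

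**Figure D2:**
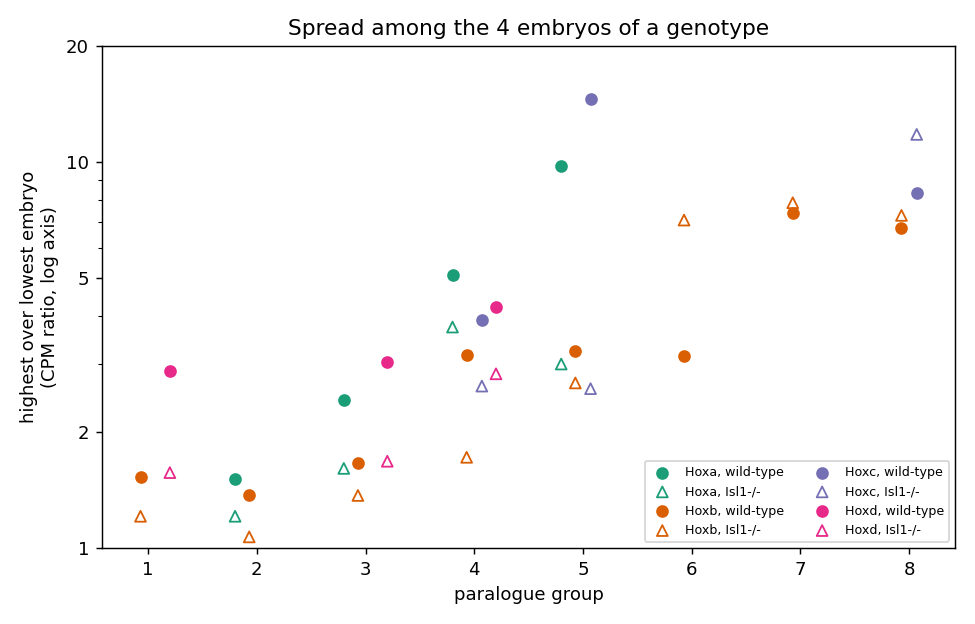
Ratio of the highest to the lowest CPM among the 4 embryos of a genotype (vertical axis, logarithmic) against paralogue group, with a filled circle for wild-type and an open triangle for Isl1-/- embryos, coloured by cluster. Ratios stay at 3.04 or below over groups 1 to 3 and reach 14.6 for Hoxc5 and 11.8 for Hoxc8.

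Central Hox genes, of groups 5 to 8, specify the neck and thorax, and Hoxa5 and Hoxb5 also mark lateral plate mesoderm behind the heart. Hoxa5 was at 29, 139, 15 and 82 reads in the wild-type and 55, 56, 122 and 99 reads in the Isl1-/- embryos. Hoxc5 had 29, 125, 9 and 85 reads in the wild-type and 46, 72, 88 and 88 reads in the Isl1-/- embryos. In both genes wild-type embryo 3 was the lowest of all 8 libraries, and wild-type embryo 2 lay far above it. Aldh1a2, which makes retinoic acid, was likewise lowest in wild-type embryo 3 and was highest in wild-type embryo 2, at 55.3, 116, 31.5 and 77.4 CPM in the wild-type against 50.2, 48.5, 71.6 and 69.8 CPM in the Isl1-/- embryos, and its part in the Hox values was not tested.

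Hoxb6, Hoxb7 and Hoxb8 are neighbours in the Hoxb cluster. Hoxb6 had 56, 78, 27 and 29 reads in the wild-type and 15, 99, 69 and 52 reads in the Isl1-/- embryos. Hoxb7 had 12, 35, 5 and 6 reads in the wild-type and 5, 30, 19 and 31 reads in the Isl1-/- embryos. Hoxb8 had 24, 110, 18 and 19 reads in the wild-type and 12, 59, 63 and 69 reads in the Isl1-/- embryos. Scaled to depth, all 3 genes were lowest in Isl1-/- embryo 1, and wild-type embryo 2 and Isl1-/- embryos 2, 3 and 4 lay above the other 4. The margin was narrow for Hoxb6, with 2.55 CPM in Isl1-/- embryo 4 against 2.34 CPM in wild-type embryo 1, and wider for Hoxb8, with 2.45 CPM in Isl1-/- embryo 2 against 1.0 CPM in wild-type embryo 1. The 8 listed allantois and posterior lateral plate markers summed to 232, 367, 157 and 174 CPM in the wild-type and 122, 355, 281 and 177 CPM in the Isl1-/- embryos, so Isl1-/- embryo 4 lay below wild-type embryo 1. Hand1, at 30.8 to 97.2 CPM, and Postn made up a large part of each sum, and members of the list differed from one another. Postn, a matrix gene named after its values were seen, was at 98.1, 161, 24.9 and 46.7 CPM in the wild-type and 33.8, 180, 150 and 78.6 CPM in the Isl1-/- embryos, whereas Vcam1, an adhesion molecule of the allantois, was at 31.8, 30.6, 23.7 and 27.3 CPM and 17.0, 19.0, 18.1 and 14.6 CPM. Tbx4 was at or below 0.421 CPM throughout. Neither the tissue that gave these reads nor its part in the Hoxb values was tested.

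Hoxc8, which patterns the thorax, departed from its neighbours. It had 11, 27, 75 and 10 reads in the wild-type and 6, 66, 49 and 49 reads in the Isl1-/- embryos. Wild-type embryo 3 thus held the most Hoxc8 reads of any library although its Hoxb8 and Hoxc6 counts were 18 and 7. Hoxc6 was at 0 to 23 reads, Hoxd8 at 1 to 14, Hoxa7 at 0 to 24 with 24 in Isl1-/- embryo 4 only, and Hoxa6 at 0 throughout.

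Shares of the Hox reads summed up this arrangement. Groups 1 to 4 took 85.9% to 94.7% of the Hox reads of a wild-type embryo and 86.3% to 96.7% of those of an Isl1-/- embryo. Groups 5 to 8 took 6.99% (95% Wilson interval 6.15 to 7.93), 11.6% (10.8 to 12.4), 4.90% (4.28 to 5.59) and 6.23% (5.59 to 6.94) in wild-type embryos 1 to 4. In Isl1-/- embryos 1 to 4 they took 3.24% (2.81 to 3.72), 9.79% (8.99 to 10.6), 10.5% (9.69 to 11.4) and 9.26% (lower limit 8.54). Isl1-/- embryos 2 to 4 and wild-type embryo 2 were above the other 4, with no overlap of their intervals, so the genotypes overlapped. Each interval covers only the counting error of 1 library. Reads carried no molecular identifiers, so duplicate reads, where present, would make the intervals too narrow. Summed levels of groups 5 to 8 were 14.9 ± 10.3 CPM in the wild-type and 20.3 ± 9.28 CPM in the Isl1-/- embryos (SD, n = 4), and those of groups 1 to 4 were 172 ± 42.4 and 220 ± 25.9 CPM.

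**Figure D3:**
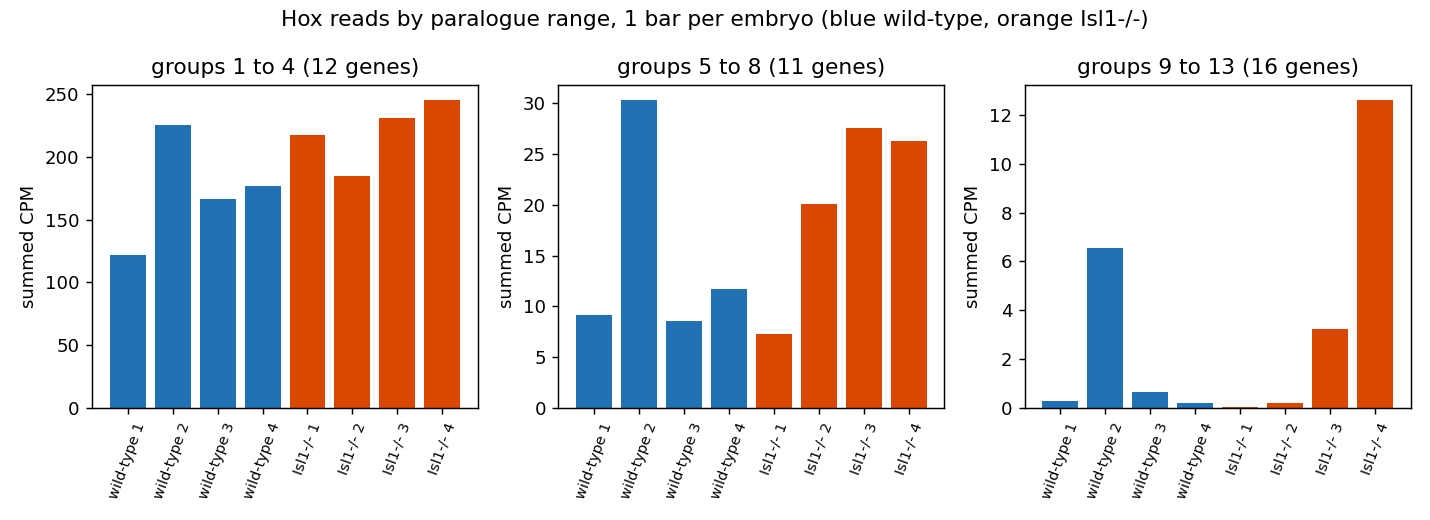
Summed CPM of the 12 Hox genes of groups 1 to 4, the 11 of groups 5 to 8 and the 16 of groups 9 to 13 (1 panel each, with its own vertical axis from 0), with a bar per embryo, blue for wild-type and orange for Isl1-/-. Groups 9 to 13 stand at 6.56, 3.24 and 12.6 CPM in wild-type embryo 2 and Isl1-/- embryos 3 and 4, and at or below 0.632 CPM in the other 5.

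Genes of groups 9 to 13, which pattern the lumbar to caudal trunk and the limbs, had at least 10 reads in 3 of the 8 embryos. Hoxb9 had 1, 146, 4 and 1 reads in the wild-type and 0, 0, 20 and 54 reads in the Isl1-/- embryos. Hoxa9 had no more than 2 reads in any wild-type embryo and 0, 1, 10 and 65 in the Isl1-/- embryos. Hoxd9 had 0 reads in all 4 wild-type embryos and 0, 0, 5 and 23 in the Isl1-/- embryos. A count of 0 allowed a level of up to 3 reads in a library, which is 0.115 to 0.159 CPM at these depths.

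Hoxa10 had 0, 0, 1 and 0 reads in the wild-type and 0, 0, 7 and 38 reads in the Isl1-/- embryos. Hoxa11, a gene of the limb and urogenital tract, had 1, 0, 0 and 0 reads in the wild-type and 0, 1, 7 and 32 reads in the Isl1-/- embryos. Both were highest in Isl1-/- embryo 4, as were the remaining 3 genes. Hoxc9 had 1, 0, 3 and 0 reads in the wild-type and 1, 2, 5 and 11 reads in the Isl1-/- embryos. Hoxd10 had 0, 0, 1 and 0 reads in the wild-type and 0, 0, 4 and 17 reads in the Isl1-/- embryos. Hoxd11 had 0, 0, 1 and 0 reads in the wild-type and 0, 0, 4 and 15 reads in the Isl1-/- embryos. Isl1-/- embryo 4 held the most reads of 7 of these 8 genes, and Isl1-/- embryo 3 held fewer of each.

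The 3 embryos in which a gene of groups 9 to 13 reached 10 reads differed in which cluster gave them, and the other 5 had 1 to 15 reads of these groups in all. In wild-type embryo 2, Hoxb9 accounted for 146 of 148 reads of groups 9 to 13, or 98.6% (95% Wilson interval 95.2 to 99.6). In Isl1-/- embryo 3 it accounted for 20 of 62 reads, 32.3% (22.0 to 44.6), beside 24 from Hoxa, 5 from Hoxc and 13 from Hoxd. In Isl1-/- embryo 4 it accounted for 54 of 257 reads, 21.0% (16.5 to 26.4), beside 135 from Hoxa, 11 from Hoxc and 57 from Hoxd. Reads of these groups thus came from Hoxb9 with 2 exceptions in wild-type embryo 2 and from all 4 clusters in the Isl1-/- pair.

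The most 5′ gene with at least 10 reads gave the same picture by cluster. In Hoxa it was Hoxa5 in 6 embryos, Hoxa9 in Isl1-/- embryo 3 and Hoxa11 in Isl1-/- embryo 4. In Hoxb it was Hoxb8 in 5 embryos and Hoxb9 in wild-type embryo 2 and Isl1-/- embryos 3 and 4. In Hoxc it was Hoxc8 in 6 embryos, Hoxc5 in Isl1-/- embryo 1 and Hoxc9 in Isl1-/- embryo 4. In Hoxd it was Hoxd4 in 7 embryos and Hoxd11 in Isl1-/- embryo 4. Isl1-/- embryo 4 therefore had 30 Hox genes at this level, against 17 to 22 in the other libraries.

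**Figure D4:**
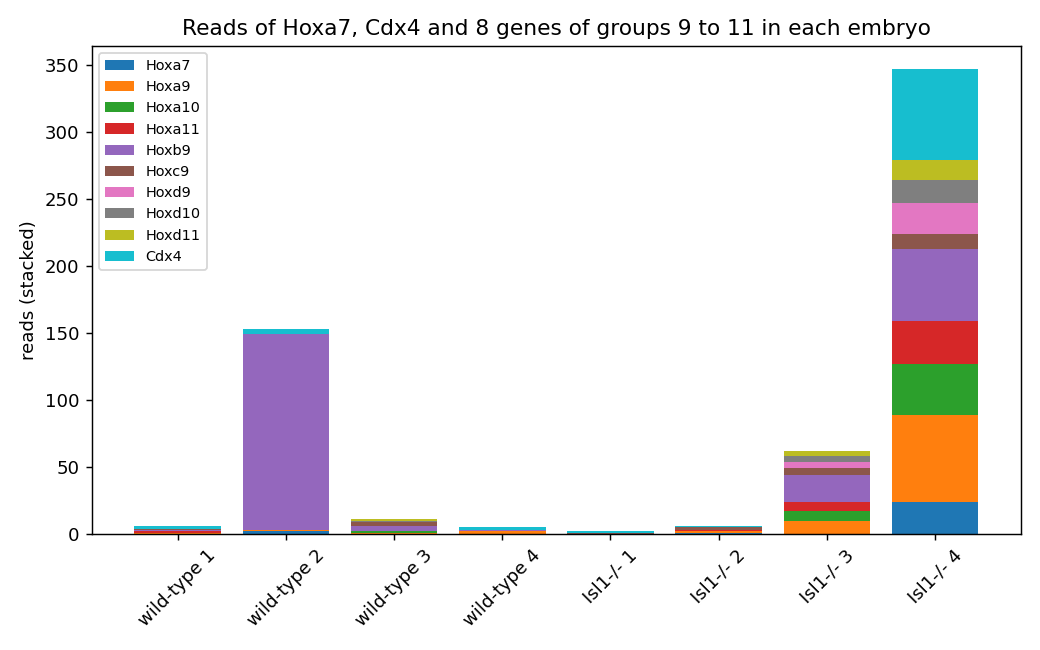
Reads of Hoxa7, Cdx4 and the 8 genes of groups 9 to 11 with at least 10 reads in an embryo, stacked for each of the 8 embryos (vertical axis, reads). The bar of wild-type embryo 2 is nearly all Hoxb9 (146 reads), whereas that of Isl1-/- embryo 4 is divided among 10 genes, among them Cdx4 with 68 and Hoxa9 with 65 reads.

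The Cdx genes differed from one another in where they were read. Cdx1, which acts on anterior and central Hox genes, was at 29, 89, 29 and 61 reads in the wild-type and 45, 83, 57 and 63 reads in the Isl1-/- embryos. Cdx2, a gene of the trophoblast, allantois and tail, was at 34, 54, 51 and 22 reads in the wild-type and 14, 92, 52 and 93 reads in the Isl1-/- embryos. Cdx4 was at 2, 4, 0 and 2 reads in the wild-type and 1, 1, 0 and 68 reads in the Isl1-/- embryos. Cdx4 thus stood above 4 reads in Isl1-/- embryo 4 alone, and the Isl1-/- embryo 3 library, which had Hoxa9, Hoxa10 and Hoxa11 reads, had none.

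The 10 listed caudal epiblast and tail bud genes had reads in all 8 embryos, and whether caudal tissue was their source was not tested. Their levels summed to 192, 199, 240 and 206 CPM in the wild-type and 256, 222, 206 and 231 CPM in the Isl1-/- embryos. Isl1-/- embryos 3 and 4 thus lay inside the range of the others. Most of each sum came from Greb1, at 108 to 135 CPM, and Sp8, at 29.9 to 51.1 CPM. The sum therefore says little about the other genes of the list. T, a gene of this list, was at 3.63, 5.63, 15.2 and 4.71 CPM in the wild-type and 7.19, 8.50, 10.8 and 9.89 CPM in the Isl1-/- embryos. Of the 14 presomitic and paraxial markers, summing to 126 to 186 CPM in the wild-type and 142 to 210 CPM in the Isl1-/- embryos, Msgn1 was at or below 0.0979 CPM in every library, and Tbx6 was at 1.27 CPM in Isl1-/- embryo 4 against 0.249 to 0.619 CPM elsewhere. Evx1, beside the 5′ end of Hoxa, was at 0.626, 0.0887, 1.31 and 0.532 CPM in the wild-type and 0.387, 0.456, 0.261 and 1.27 CPM in the Isl1-/- embryos, and Evx2, beside the 5′ end of Hoxd, had no read. The part of these tissues in the posterior Hox reads was not tested.

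The genotypes were then compared in a count model of all genes (edgeR quasi-likelihood test, two-sided). Of the 42 members, 22 passed the filter on low counts (20 Hox genes of groups 1 to 8, Cdx1 and Cdx2) and 20 did not, among them all of groups 9 to 13, Cdx4, Hoxa6, Hoxa7 and Hoxd8. None of the 22 passed an FDR of 0.05, against 0.973% of the 14075 genes tested, and none passed 1.5-fold with an unadjusted p under 0.05, against 3.93%. DESeq2, run on the same 14075 genes, called 0 of the 22 at an adjusted p under 0.05, where it called 5.04% of all genes. Past 1.5-fold with an unadjusted p under 0.05 it called 0 of the 22, against 3.48% of all genes. It gave no adjusted p for Hoxb7 and Hoxc6. At an unadjusted p under 0.05 edgeR gave 2 members, both higher in the Isl1-/- embryos, where it gave 7.37% of all genes as higher and 17.4% in either direction, and DESeq2 gave 3 (background 17.5%).

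Those members were Hoxb2, with a log2 fold change of 0.28 (SE 0.10, edgeR FDR 0.211), and Hoxb3, a group 3 gene of the hindbrain and pharyngeal arches, with 0.43 (SE 0.16, edgeR FDR 0.209), and Hoxb1 was the DESeq2 addition (DESeq2 adjusted p = 0.223). Hoxb3 was at 23.7, 39.2, 31.3 and 29.2 CPM in the wild-type and 41.3, 37.0, 37.0 and 50.8 CPM in the Isl1-/- embryos, with wild-type embryo 2 inside the Isl1-/- range. Reads were counted without regard to strand, and the antisense gene Hoxb3os overlaps 1632 exon bases of Hoxb2 and 1140 of Hoxb3 in GENCODE, so its reads could not be told apart from theirs. Hoxb7 and Hoxb8 share 1069 annotated exon bases, Hoxd3 and Hoxd4 share 1725, and the antisense gene Hoxa11as overlaps 1038 of Hoxa11. Values of the genotypes did not overlap in 0 of the 22 members, against 10.3% of all genes tested.

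All 22 estimates were above 0, where 51.2% of all genes were, from 0.09 for Hoxd1 to 0.98 for Hoxc6 (SE 0.99). Their median log2 fold change was 0.38, beside 0.01 over all genes, and their median SE was 0.43, beside 0.12. By range the medians were 0.31 for the 12 genes of groups 1 to 4, 0.46 for the 8 of groups 5 to 8 and 0.57 for Cdx1 and Cdx2. By cluster they were 0.34 for Hoxa (5 genes), 0.33 for Hoxb (8), 0.50 for Hoxc (4) and 0.45 for Hoxd (3). The estimates share the same 8 embryos and are not independent. Wild-type embryo 1 was the lowest of the 8 libraries in all 8 genes of groups 1 to 3, and without it the median was 0.19 and 21 of 23 estimates were above 0. Without wild-type embryo 3 the median was 0.24 and 19 of 23 estimates were above 0.

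**Figure D5:**
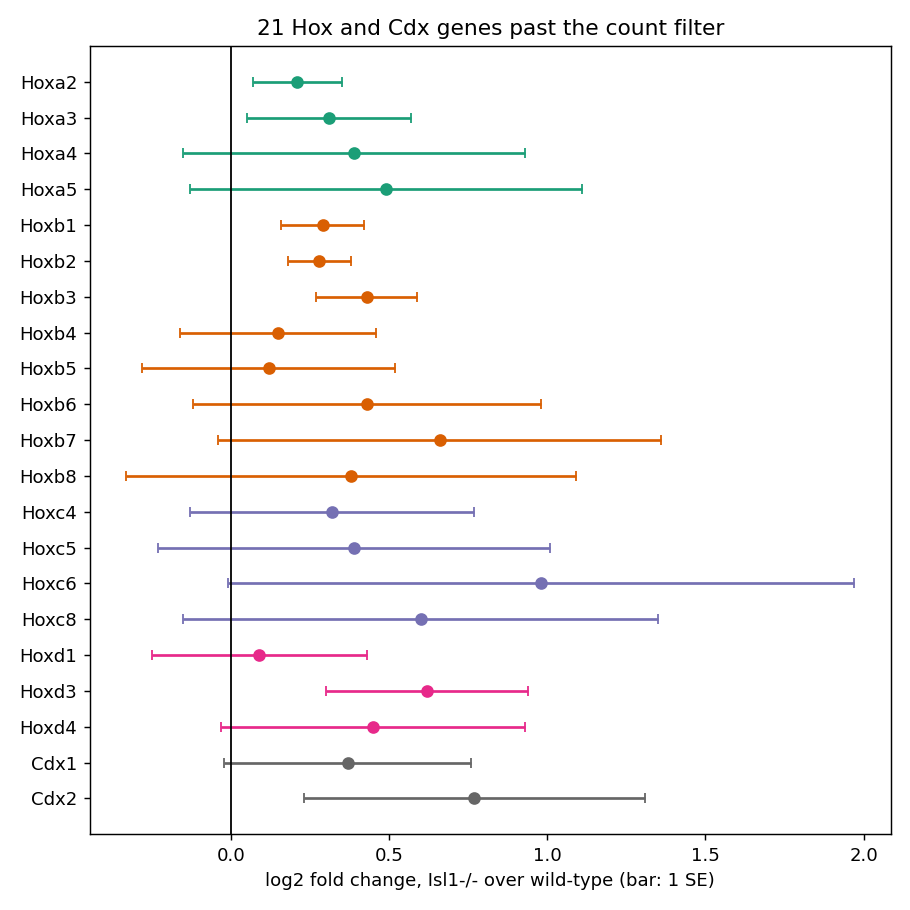
log2 fold change of Isl1-/- over wild-type embryos (horizontal axis, bars of 1 SE, edgeR fit of 4 against 4 embryos) for 21 of the 22 members past the count filter, ordered by cluster and paralogue group. All points lie above 0, from 0.09 to 0.98, and the bars widen from groups 1 to 3 to the central genes.

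Leaving out wild-type embryo 2 moved these comparisons most among the 8 embryos. It was the highest of the 8 libraries in 6 of the 14 genes of groups 4 to 8 that reached 10 reads. Without it, 5 members passed 1.5-fold with an unadjusted p under 0.05, all higher in the Isl1-/- embryos (Cdx1, Hoxb7, Hoxb8, Hoxd3 and Hoxd4), against 1.81% of all genes, and the median estimate was 0.77, yet none passed the FDR (9 at an unadjusted p under 0.05, background 13.8%). With no filter on low counts, 36 members could be fitted and 7 passed the same thresholds as higher, against 1.90% of all genes, namely Hoxa9, Hoxa10, Hoxa11, Hoxc9, Hoxd9, Hoxd10 and Hoxd11, and none passed the FDR (background 0.763%), with 10 of 36 at an unadjusted p under 0.05 (background 14.3%). Without Isl1-/- embryo 4 none of these 7 passed (0 members higher, background 1.33%), a fit added after seeing the data, so their calls rested on that embryo.

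Genes that act with or upstream of the Hox genes were compared in the same model. The counts given for these lists stand beside shares over all genes of 0.973% at an FDR of 0.05 and 17.4% at an unadjusted p under 0.05 by edgeR. The share called by DESeq2 was 5.04%. Of 9 Hox cofactors of the Meis, Pbx and Pknox families, which bind DNA with Hox proteins, none passed an FDR of 0.05 (1 at an unadjusted p under 0.05, 0 by DESeq2). Pbx4, that gene, was at 2.29 ± 0.588 CPM in the wild-type and 3.77 ± 0.381 CPM in the Isl1-/- embryos (SD, n = 4, edgeR FDR 0.132). Meis2 was at 167 ± 14.5 and 171 ± 14.0 CPM.

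None of 20 retinoic acid and upstream regulators passed by edgeR (3 at an unadjusted p under 0.05), while DESeq2 called 1, Cyp26b1, a retinoic acid degrading enzyme, at 14.5 ± 5.65 and 25.3 ± 4.77 CPM (log2 fold change 0.80, SE 0.24, edgeR FDR 0.143). None of 25 Polycomb and trithorax genes, which keep Hox genes silent or active, passed by edgeR (5 at an unadjusted p under 0.05), and DESeq2 called Ezh1, at 18.4 ± 2.38 and 26.3 ± 3.27 CPM (edgeR FDR 0.0855). Of 38 listed transcripts in or beside the clusters, 13 were found in the data and 10 were tested. All those found lie beside a cluster, so no listed transcript inside a cluster was tested. None of the 10 passed by edgeR (3 at an unadjusted p under 0.05). DESeq2 called Calcoco1, which lies beside Hoxc, at 34.8 ± 0.856 and 46.5 ± 5.80 CPM (edgeR FDR 0.0731).

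Tissue lists gave the setting of these values. Over all genes tested, edgeR called 0.973% at an FDR of 0.05 and gave 17.4% at an unadjusted p under 0.05, and DESeq2 called 5.04%. In the heart and pharyngeal list 10 of 15 genes were lower in the Isl1-/- embryos at an FDR of 0.05 and 0 higher. They included the knocked-out gene Isl1 itself, and Nkx2-5 (log2 fold change -1.40), Tbx20 (-1.13) and Tbx5 (-1.17), factors of the cardiac progenitors. Of the genes not called, the pharyngeal factor Tbx1 went the other way (0.98, edgeR FDR 0.248) and Fgf8 was at 0.03. In the posterior second heart field list Wnt2 (-0.59) and Tbx5 were lower, 2 of 6, in the allantois list Vcam1 (-0.72), 1 of 7 tested, and in the gut endoderm list Pyy (-3.83), 1 of 9. By edgeR none was called of 10 caudal, 10 presomitic, 13 hindbrain and 8 neural crest genes tested, with 1, 0, 1 and 0 at an unadjusted p under 0.05 and 0, 0, 0 and 0 called by DESeq2. The hindbrain list, tissue in which groups 1 to 4 are strongly expressed, summed to 356 to 427 CPM in the wild-type and 371 to 487 CPM in the Isl1-/- embryos, and wild-type embryo 1, lowest for the anterior Hox genes, was at 365 CPM. Neural crest genes summed to 228 to 281 and 209 to 376 CPM.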

How the data were processed

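Libraries were made by the authors from 100 ng of total RNA of single embryos, and reads were mapped to mm9 with STAR and counted over exons on both strands with HOMER (versions are not given in the sources used here). The deposited counts are raw reads per RefSeq transcript, with no normalization, and the deposited transcript length is in bases. The RPKM values, fold changes and p-values that the authors deposited were not used. The labels give total RNA as the molecule of Isl1-/- embryo 2 and polyA RNA for the other 7.

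Of 31507 transcript entries, 1 was kept per symbol, that with the highest summed count, and 6 of the 42 members had more than 1. Counts were filtered with filterByExpr, scaled by TMM and fitted in edgeR 4.0.16 (R 4.3.3) with genotype as the single term. Two-sided quasi-likelihood p-values of the 14075 genes fitted were adjusted together by the Benjamini-Hochberg method (FDR). The cutoffs used by the study were applied as well, namely an unadjusted p under 0.05 and a log2 fold change past 0.58 (1.5-fold). CPM and RPKM are TMM-scaled. Alternatives were DESeq2 1.42.0, its size factors in edgeR, no count filter, the longest entry per symbol, a replicate block and leaving out each embryo. A count of 0 was read as up to 3 reads. Any 2 embryos of a genotype differed beyond sampling noise (chi-square per degree of freedom at least 7.85).

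Gene positions came from GENCODE vM1 (mm9) and start-site windows from RefSeq (GRCm38.p6), with no conversion between them. Shares were computed in Python 3.11.15 with pandas 2.3.3 and scipy 1.17.1, and plots drawn with matplotlib 3.10.9.

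Members and lists were chosen with earlier results of these data known. Values in every embryo were to be given for members past a threshold or with no overlap between genotypes, the most abundant member of each cluster, the Cdx genes, and genes of groups 9 to 13 with at least 10 reads in an embryo. Hoxa5, Hoxb3, Hoxb6, Hoxb7, Hoxb8, Hoxc5 and Hoxc8 were added after their values were seen. Some items are not reported here. Other genes named are Isl1, up to 3 called genes per list with the lowest FDR, tissue markers and transcripts of the clusters, and, after their values were seen, Meis2, Pbx4 and genes called by DESeq2. The 12 lists are heart and pharyngeal mesoderm, posterior second heart field, caudal epiblast and tail bud, presomitic and paraxial mesoderm, allantois and posterior lateral plate, hindbrain and neural tube, neural crest, gut endoderm, Hox cofactors, retinoic acid and upstream regulators, Polycomb and trithorax, and transcripts in or beside the clusters.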

Additional observations from a re-analysis of the deposited data

Results flagged for a closer look

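An embryo stood apart from the other 3 of its genotype where the gap to its nearest neighbour, divided by the range of the 4, passed Dixon's critical value for 4 values. This was computed for the 62 combinations of genotype and member, or summed range, with at least 10 reads in some embryo, and 9 passed. The critical value passes about 1 in 20 sets of normally distributed values by chance. That share does not hold here, so the 9 of 62 cannot be set against it. Low counts are skewed, and genes of a cluster are not independent of each other. Cdx4 and Hoxa7 in the Isl1-/- and Hoxb9 in the wild-type embryos also reached 10 reads only in the embryo that stood apart.

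Wild-type embryo 2 gave 5 of the 9 as the highest of its genotype. For Hoxb9 the ratio was 0.980, with 6.47 CPM against 0.0380 to 0.169 CPM in the other 3. For Hoxb8 it was 0.933 (4.88 against 0.722 to 1.0 CPM) and for Hoxb5 0.834 (6.30 against 1.94 to 2.66 CPM). The summed levels of groups 5 to 8, at 0.853 (30.3 against 8.55 to 11.7 CPM), and of groups 9 to 13, at 0.931 (6.56 against 0.190 to 0.632 CPM), contain these genes.

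Isl1-/- embryo 4 gave 3 as the highest of its genotype. Cdx4 had a ratio of 0.988 (3.33 against 0 to 0.0415 CPM), Hoxa7 one of 0.965 (1.17 against 0 to 0.0415 CPM) and Hoxa9 one of 0.836 (3.18 against 0 to 0.523 CPM). Isl1-/- embryo 1 was the lowest of its genotype for Hoxc8, at 0.865 (0.232 against 2.40 to 2.74 CPM).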

How the results depend on the processing

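No member fitted passed an FDR of 0.05 in edgeR or DESeq2 under any of the 14 alternatives, of which the fit with no count filter and without Isl1-/- embryo 4 was added after seeing the data. DESeq2 was run only on genes past the count filter, so members of groups 9 to 13 and Cdx4 were not tested by it. It gave no adjusted p for Hoxb7 and Hoxc6. Members past 1.5-fold with an unadjusted p under 0.05 numbered 7 with no filter, where 1.90% of all genes passed as higher. With no filter and without Isl1-/- embryo 4 there was 1 (Hoxd13, lower). With an embryo left out the count was 0 to 5. The 5 came without wild-type embryo 2, where 1.81% of all genes passed as higher. Cdx2 passed without Isl1-/- embryo 1, and Hoxd3 without wild-type embryo 3. For the single calls of Hoxd13, Cdx2 and Hoxd3 no matching share over all genes was computed. Of the 64 tested genes acting with or beside the clusters, DESeq2 called 3 (5.04% over all genes), and leaving out an embryo gave 0 to 1. Of 308 member fold changes under the alternatives 7 changed sign, all of the 3 smallest estimates. Leaving out an embryo gave Hoxb4 -0.06 to 0.49, Hoxb5 -0.07 to 0.62 (also -0.06 without Isl1-/- embryo 3) and Hoxd1 -0.07 to 0.52 (also -0.03 without Isl1-/- embryo 4 and 0.00 without wild-type embryo 3), and Hoxd1 was -0.04 with no filter and without Isl1-/- embryo 4. At a minimum of 3 reads the most 5′ gene was of groups 9 to 13 in 3 embryos for Hoxc and 2 for Hoxd, against 1 and 1.

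The labels give replicate numbers but no pairing of the genotypes. Deviations of the same-numbered pairs correlated at 0.109, 0.212, 0.0863 and 0.507. The highest value was 0.552, for wild-type embryo 4 with Isl1-/- embryo 1, and wild-type embryo 3 correlated best with Isl1-/- embryo 2 (0.472). Whether embryos of the same number shared a litter or batch cannot be told from these values. With a replicate block 76 genes were called in all, against 137 without it, 0 members passed either threshold, the lowest member FDR was 0.279 and the Isl1 log2 fold change was -2.84. Each gene of groups 9 to 13 had under 10 reads in at least 5 of the 8 embryos, so their values rest on few reads.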
